A study of Mus musculus with 19 samples.

Results

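A set of 10 genes of the p53 and apoptosis pathway were followed across 19 mouse RNA-seq libraries. The genes were chosen by name, and all 10 are among the 12778 genes of the deposited expression matrix. They are Trp53, Mdm2, Bax, Bak1, Bcl2l11, Bcl2, Bcl2l1, Mcl1, Casp2 and Ei24. The study set wild-type cells beside cells that lack the miR-290 cluster, the miR-302 cluster or both. These clusters encode the most abundant microRNAs of mouse pluripotent cells.

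The wild-type (WT) iPSC group has 3 libraries. The miR-290 KO iPSC, miR-302 KO iPSC and double KO iPSC groups (KO, knockout) each consist of 2 colonies, sequenced as 2 libraries apiece. For the ESC, miR-290 KO and miR-302 KO lines gave 2 libraries each, and no WT ESC library was analysed here. The iPSC or iPSC-like cells came from mouse embryonic fibroblasts given Oct4, Sox2 and Klf4, and were collected over 18 passages later. The ESC lines were derived as embryonic stem cells. All 6 groups grew in medium with LIF and serum, and the labels name no other allele or agent. Each colony is a separately derived line. The text of the series excepts the WT libraries from independent derivation and does not state whether those 3 share a line. If they do, p-values against WT can be too small. Every comparison with WT iPSC uses the same 3 WT libraries.

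p53, encoded by Trp53, is a transcription factor that switches on genes of cell cycle arrest and cell death after DNA damage or other stress, and Mdm2 marks it for degradation. Death signals converge on the outer mitochondrial membrane, where Bax and Bak1 open pores that release cytochrome c and so activate caspases. Bcl2, Bcl2l1 and Mcl1 hold Bax and Bak1 in check, and Bcl2l11 (Bim) relieves that block. Casp2 is an initiator caspase switched on by a platform that forms after DNA damage or failed cell division, and Ei24 is an endoplasmic reticulum protein induced by p53. Casp2 and Ei24 have been reported as targets of the miR-290 cluster, whose loss was linked to higher sensitivity of embryonic stem cells to damage.

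Most of the abundant microRNAs of both clusters carry the same seed, the bases 2 to 8 that pair with a target. The members below are shown because their seed is identical, so that microRNAs of either cluster can pair with the same letters of a target. Capitals mark the seed. Sequences are from RefSeq, with positions in GRCm38.p6.
miR-291a-3p (chr7:3218968-3218989, plus strand): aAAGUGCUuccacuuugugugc
miR-294-3p (chr7:3220691-3220712, plus strand): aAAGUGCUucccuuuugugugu
miR-295-3p (chr7:3220815-3220837, plus strand): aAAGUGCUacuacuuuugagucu
miR-302b-3p (chr3:127545275-127545297, plus strand): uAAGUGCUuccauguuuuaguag
miR-302d-3p (chr3:127545665-127545687, plus strand): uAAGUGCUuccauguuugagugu
The first 3 belong to the miR-290 cluster on chromosome 7 and the last 2 to the miR-302 cluster on chromosome 3.

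The longest annotated 3′UTR of each gene was searched on the sense strand of the transcript for AGCACTT, which pairs with bases 2 to 8, and for GCACTTA, which pairs with bases 2 to 7 followed by an A. Where these letters overlap as AGCACTTA the match has 8 bases. Casp2, Ei24, Bcl2, Bcl2l11 and Mcl1 hold at least 1 match, and Trp53, Mdm2, Bax, Bak1 and Bcl2l1 hold none. None of the 10 genes holds an 8-base match. Of 11834 genes in the matrix with a 3′UTR, 20.7% hold a match of either kind and 3.6% an 8-base match. The stretches around the matches in the genes that results below turn on are printed here in sense orientation, with the matched letters in capitals and their mm10 (GRCm38) position.
Casp2, site 1 (chr6:42281288-42281294, plus strand): ggcttctgcatGCACTTAcactgtacttg
Casp2, site 2 (chr6:42281558-42281564, plus strand): tataacctagaAGCACTTgtctctgctct
Casp2, site 3 (chr6:42282080-42282086, plus strand): tccagtaactgGCACTTActaggtcttca
Ei24 (chr9:36779889-36779895, minus strand): gctgtttttttAGCACTTgccagctcctg
Bcl2, site 1 (chr1:106540042-106540048, minus strand): acagttaagggAGCACTTtcatgtagttc
Bcl2, site 2 (chr1:106538836-106538842, minus strand): gatggcacctgAGCACTTcatcctggata
Mcl1 (chr3:95662642-95662648, plus strand): tcggacttcagAGCACTTtatgtagttga
Bcl2l11 holds 3 matches on chromosome 2. A longer 3′UTR holds a match more often by length alone. Among 3′UTRs within 25% of its length of 2031 bases, 27.6% hold a match in the case of Casp2. The corresponding shares were 14.4% for Ei24 (948 bases), 31.2% for Mcl1 (2353 bases), 47.0% for Bcl2l11 (4218 bases) and 54.0% for Bcl2 (5086 bases). A match is a description of the letters and does not show that the site is used.

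**Figure D1:**
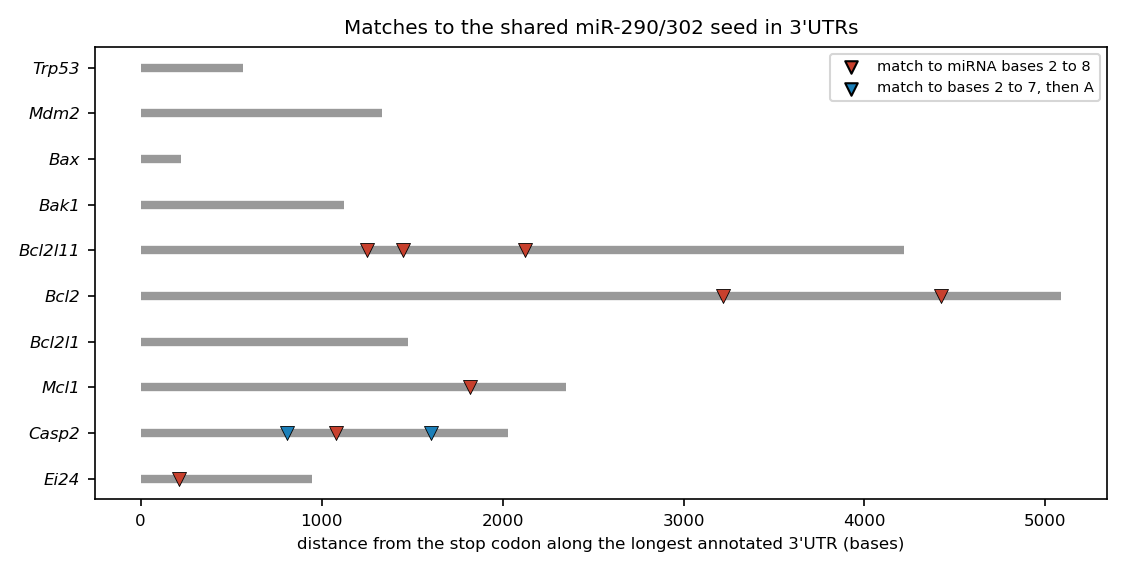
Position of each match to the shared seed (triangles; red, bases 2 to 8; blue, bases 2 to 7 then A) along the longest annotated 3′UTR (grey bar, in bases from the stop codon) of the 10 genes. Casp2 and Bcl2l11 hold 3 matches each, Bcl2 2, and Mcl1 and Ei24 1.

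Levels below are in CPM (reads per 1000000 reads of the library), from reads recovered from the deposited log2 values, and library totals ran from 6433259 to 24980303 reads. Differences are on the scale of those log2 values, estimated with limma over 13 samples (colony means, WT libraries and ESC libraries), and a gene was called at an adjusted p under 0.05 over all 12778 genes. Before the results, 3 facts of the samples bear on them. The cells labelled double KO iPSC lack the marker levels of pluripotent cells: 10 of 10 pluripotency markers were called lower than in WT, and their summed level was 216 to 312 CPM per library against 3177 to 4061 in WT and 3572 to 4877 in the other 4 groups. Fgf4 fell least, from a mean of 276 to 177 CPM (log2 difference -0.63, adjusted p = 0.0391), and by group means makes up most of the double KO sum. The count of markers called lower was 9 or 10 over alternative analyses. Of the fibroblast markers 3 of 10 are in the matrix, summing to 0.281 to 0.976 CPM in the double KO and 6.08 to 7.87 CPM in WT. Of the primitive endoderm markers 2 of 6 are in the matrix, summing to 0.225 to 2.58 CPM in the double KO and 4.11 to 6.76 CPM in WT, with Gata4 at 0 reads in the double KO, which allows up to 0.046 CPM. What the change of cell state contributes to any difference of the double KO was not tested. Last, library 2 of miR-302 KO iPSC colony 1 stands apart: its mean correlation with its group was 0.852 against at least 0.904 for every other library, and its 20 highest genes took 17.1% of its reads against 8.6% to 13.5% elsewhere. These are bulk samples, in which fewer cells of a kind and less RNA per cell cannot be told apart.

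Casp2, the initiator caspase (chr6:42264985-42282508, plus strand, mm10 as for all positions here), was higher in the double KO than in WT and in the miR-302 KO, and its libraries separated by the presence of the miR-290 cluster. The WT libraries held 13.2, 14.1 and 9.59 CPM. The double KO held 39.1 and 37.6 CPM in colony 1 and 29.998 and 28.3 CPM in colony 2. All 4 double KO libraries lay above all WT libraries, 33.7 ± 6.49 CPM (SD, n = 2 colonies) against 12.3 ± 2.38 CPM (SD, n = 3), a ratio of 2.74. The log2 difference was 1.49 (SE 0.29, adjusted p = 0.000987). For Casp2 and the genes below, the share of all genes whose libraries do not overlap between 2 iPSC groups was not computed. In the double KO against WT 49.0% of all genes were called, so a separation alone is no result about a gene.

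Casp2 in the miR-290 KO iPSC was 21.7 and 19.8 CPM in colony 1 and 30.1 and 26.7 CPM in colony 2. These 4 libraries also lay above all WT libraries, but the log2 difference of 1.00 (SE 0.29, 95% interval 0.38 to 1.62) was not called (adjusted p = 0.105). In the miR-302 KO iPSC, Casp2 was 8.88 and 16.6 CPM in colony 1 and 15.2 and 14.4 CPM in colony 2, overlapping the WT libraries. That log2 difference was 0.15 (SE 0.29, 95% interval -0.47 to 0.77, adjusted p = 0.817). The double KO exceeded the miR-302 KO by 1.345 (SE 0.31, adjusted p = 0.00384), the comparison that removes miR-290 where miR-302 is already absent. It did not differ by call from the miR-290 KO, at 0.49 (SE 0.31, 95% interval -0.18 to 1.17, adjusted p = 0.252).

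In the ESC, Casp2 was 23.8 and 18.7 CPM in the miR-290 KO ESC and 13.3 and 16.4 CPM in the miR-302 KO ESC. The groups do not overlap, and the log2 difference of 0.50 (SE 0.31, 95% interval -0.18 to 1.18) was not called (adjusted p = 0.554). The ESC libraries separated in the same direction for Ei24, Bcl2, Bcl2l11, Bak1 and Bcl2l1, the last 2 without a seed match. Those of Trp53, Mdm2, Bax and Mcl1 overlapped. With 2 libraries a group such a separation often arises by chance, and its share over all genes was not computed. None of the 10 members was called between the KO ESC groups, so these separations are not read as a result about the genes. By group mean the levels ran from the double KO at 33.7 CPM through the miR-290 KO iPSC at 24.6, the miR-290 KO ESC at 21.2, the miR-302 KO ESC at 14.8 and the miR-302 KO iPSC at 13.8 to WT at 12.3. In that order the ESC of either genotype are the only neighbours whose libraries do not overlap. Put together, the 10 libraries without the miR-290 cluster held 18.7 to 39.1 CPM and the 9 libraries with it held 8.88 to 16.6 CPM. No other member separated the libraries in this way. This split was chosen after the values were seen, and 1.94% of 12235 genes with recovered reads lay above in the same manner.

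The genes whose log2 values followed those of Casp2 most closely over the 13 samples were Rnf20 (Pearson r = 0.966), Zfp871 (r = 0.938) and Ilk (r = 0.937). These correlations describe samples that share groups and colonies. In the double KO against WT their log2 differences were 0.73, 1.39 and 1.81.

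**Figure D2:**
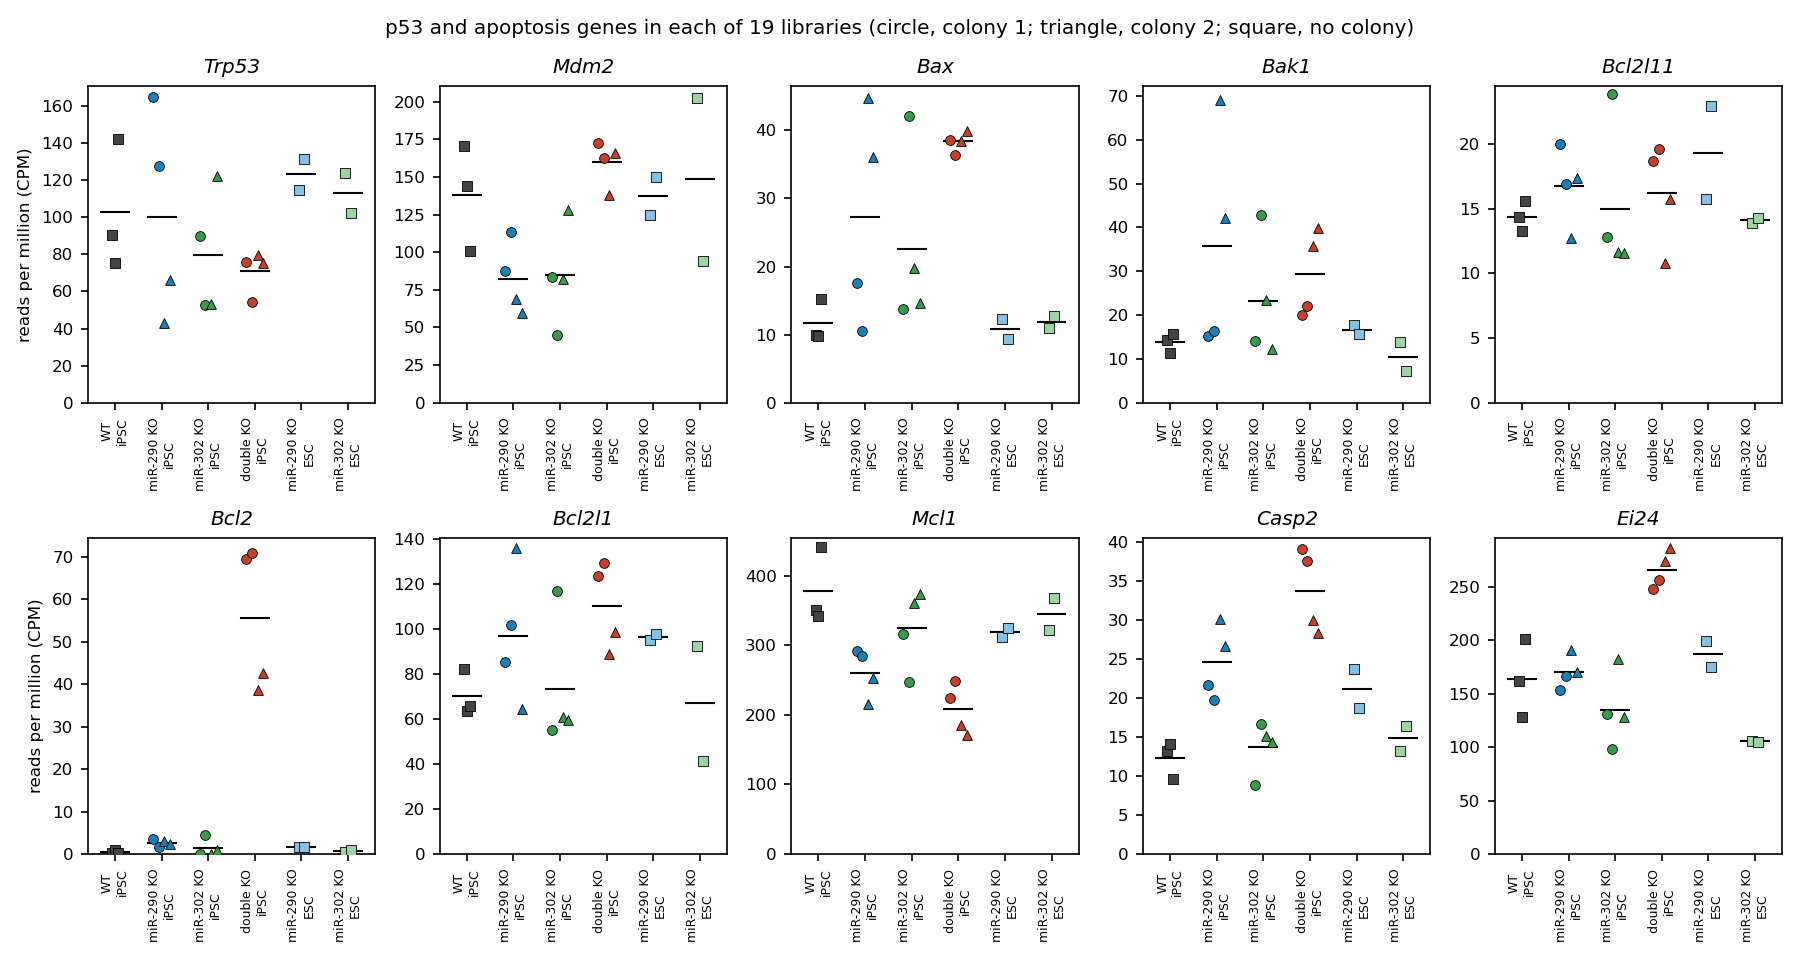
Level of each of the 10 genes in CPM (linear axis from 0) in all 19 libraries, by group; circles are colony 1, triangles colony 2, squares libraries with no colony number, and the black line is the group mean. Bcl2 stands far higher in the 4 double KO libraries (38.7 to 71.0 CPM) than in any other, and Casp2 is at 18.7 CPM or more in all 10 libraries without miR-290.

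Ei24 (chr9:36779159-36797393, minus strand), the other gene reported as a target of miR-290, was higher in the double KO than in each of the other iPSC groups. WT libraries held 162, 128.5 and 200.7 CPM, and the double KO held 247.7 and 256.3 CPM in colony 1 and 273.7 and 286.6 CPM in colony 2. All double KO libraries were above all others of the study. The log2 difference from WT was 0.76 (SE 0.21, adjusted p = 0.00946), a ratio of 1.62. The call was lost when double KO colony 2 was left out (adjusted p = 0.0682).

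Ei24 was not called with the loss of either cluster alone. The miR-290 KO iPSC held 153.4, 166.8, 191.2 and 170.5 CPM, within the range of WT, at a log2 difference of 0.09 (SE 0.21, 95% interval -0.37 to 0.54, adjusted p = 0.876), and its sign changed among the alternatives (-0.08 to 0.25). The miR-302 KO iPSC held 130.7, 98.6, 182.2 and 128.1 CPM, at -0.28 (95% interval -0.74 to 0.17, adjusted p = 0.509). The double KO was higher than the miR-302 KO by 1.05 (SE 0.23, adjusted p = 0.00266) and higher than the miR-290 KO by 0.68 (SE 0.23, adjusted p = 0.0392). The second of these calls was lost in 9 of 22 alternative analyses. In the ESC, Ei24 was 198.8 and 175.3 CPM without miR-290 and 106.2 and 104.8 CPM without miR-302. These libraries do not overlap, as was also so for Bak1 and Bcl2l1, which hold no seed match. The log2 difference of Ei24, 0.81 (SE 0.23, 95% interval 0.32 to 1.31), was not called (adjusted p = 0.155).

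Among the genes that hold back Bax and Bak1, Bcl2 rose and Mcl1 fell in the double KO. Bcl2 (chr1:106538178-106714274, minus strand) was close to silent in WT, with 3, 16 and 4 reads (0.163, 0.854 and 0.276 CPM). The double KO held 69.5 and 71.0 CPM in colony 1 and 38.7 and 42.7 CPM in colony 2, which came to 3552 reads against 23 in WT. The group means were 55.5 ± 20.9 CPM (SD, n = 2 colonies) and 0.431 ± 0.371 CPM (SD, n = 3), a ratio of 128.7. The fitted log2 difference was 6.78 (SE 0.61, adjusted p = 2.30e-06). With WT at so few reads the size depends on the constant added before the logarithm, and it was 5.28 on the log2(CPM + 1) scale.

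The miR-290 KO iPSC also lay above WT for Bcl2 in every library, at 3.58 and 1.58 CPM in colony 1 and 3.16 and 2.49 CPM in colony 2. That log2 difference of 2.45 (SE 0.61, 95% interval 1.13 to 3.77) was not called (adjusted p = 0.0641), and it was called with estimated sample weights (adjusted p = 0.0490). The miR-302 KO held 0.0573 and 4.52 CPM in colony 1 and 0.103 and 0.986 CPM in colony 2. Its highest value is from the library that stands apart, and the log2 difference from WT was 0.51 with it and -0.63 without it, called in neither case. The double KO exceeded the miR-290 KO by 4.33 (SE 0.67, adjusted p = 0.000348) and the miR-302 KO by 6.27 (SE 0.67, adjusted p = 1.25e-05).

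Mcl1 (chr3:95658788-95663176, plus strand), a short-lived protein on which many stem cells depend, was 349.8, 341.4 and 441.2 CPM in WT. In the double KO it was 224.5 and 249.3 CPM in colony 1 and 185.3 and 171.5 CPM in colony 2, below every WT library. It fell by 0.83 on the log2 scale (SE 0.20, adjusted p = 0.00449), and the call was lost without double KO colony 2 (adjusted p = 0.0641). The miR-290 KO iPSC, at 291.5, 283.9, 215.0 and 252.3 CPM, was also below every WT library, but its log2 difference of -0.53 (SE 0.20, 95% interval -0.96 to -0.09) was not called (adjusted p = 0.210). Against the miR-302 KO the double KO was called lower, at -0.60 (SE 0.22, adjusted p = 0.0376), which held in 14 of 22 alternatives. Mcl1 is the member that holds a seed match and moved downward.

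Bcl2l1 (Bcl-xL, chr2:152780668-152831728, minus strand) was 63.5 to 82.1 CPM in WT and 89.0 to 129 CPM in the double KO. All double KO libraries were above all WT libraries, and the log2 difference of 0.68 (SE 0.29, 95% interval 0.04 to 1.31) was not called (adjusted p = 0.0720), though it was in 4 of 22 alternatives. In the single KO iPSC it ran from 64.4 to 136 CPM without miR-290 and from 55.3 to 117 CPM without miR-302, overlapping WT. The value of 117 CPM is from the library that stands apart. Without that library the double KO was called higher than the miR-302 KO, by 0.95 (adjusted p = 0.0207), and with it the difference was 0.68 (adjusted p = 0.0990).

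Of the genes that drive pore formation, Bax (chr7:45461697-45466898, minus strand) rose in the double KO. WT libraries held 9.995, 9.72 and 15.2 CPM, and the double KO libraries held 38.6, 36.5, 38.5 and 39.97 CPM, with little spread between colonies. The log2 difference was 1.78 (SE 0.39, adjusted p = 0.00250), a ratio of 3.30. Bax holds no match to the seed in its 3′UTR of 224 bases. Exons of Bax overlap the annotated gene Gm45808 on the same strand, so reads in the shared bases cannot be told apart. How far the overlap extends was not examined.

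Colonies of the single KO iPSC disagreed for Bax. In the miR-290 KO it was 17.5 and 10.6 CPM in colony 1 and 44.8 and 36.1 CPM in colony 2, so colony 1 lay near WT and colony 2 near the double KO. The log2 difference from WT of 1.04 (SE 0.39, adjusted p = 0.208) was not called. It ran from 0.26 without colony 2 to 1.82 without colony 1, where it was called (adjusted p = 0.0408). In the miR-302 KO, Bax was 13.8, 19.8 and 14.7 CPM in 3 libraries and 42.1 CPM in the library that stands apart. The difference of 0.83 from WT (SE 0.39, adjusted p = 0.339) was not called, nor was 0.43 without that library. The double KO exceeded the miR-302 KO by 0.95 (SE 0.43, adjusted p = 0.0861), and by 1.35 without that library, when it was called (adjusted p = 0.0177).

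Bak1 (chr17:27019810-27029009, minus strand) was also split between colonies. It was 14.3, 11.3 and 15.7 CPM in WT, 15.2 and 16.3 CPM in miR-290 KO colony 1 and 69.2 and 42.3 CPM in colony 2. The double KO held 20.1 and 21.96 CPM in colony 1 and 35.9 and 39.97 CPM in colony 2, above every WT library, at a log2 difference of 1.08 (SE 0.47, 95% interval 0.07 to 2.09) that was not called (adjusted p = 0.0709), though it was in 4 of 22 alternatives. The miR-290 KO differed by 1.10 (SE 0.47, adjusted p = 0.259). Bcl2l11 (chr2:128126038-128162547, plus strand) stayed within 10.8 to 23.9 CPM in all 19 libraries, and its log2 difference between double KO and WT was 0.18 (SE 0.28, 95% interval -0.42 to 0.78, adjusted p = 0.621), although it holds 3 matches to the seed.

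Trp53 mRNA itself (chr11:69580359-69591873, plus strand) was not called in any of the 10 comparisons. It was 90.3, 75.4 and 142 CPM in WT and 54.3 to 79.5 CPM in the double KO, at a log2 difference of -0.45 (SE 0.36, 95% interval -1.22 to 0.33, adjusted p = 0.321). The widest gap between colonies was in the miR-290 KO iPSC, with 164.8 and 127.8 CPM in colony 1 and 42.8 and 66.1 CPM in colony 2. Colony 2 is the colony with the higher Bax and Bak1.

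Mdm2 (chr10:117688875-117710758, minus strand) is both an inhibitor of p53 and a gene that p53 switches on, and its libraries in each single KO lay below those of the double KO. WT libraries held 170.5, 143.7 and 100.5 CPM. The miR-290 KO held 87.3, 113.5, 69.0 and 59.8 CPM, the miR-302 KO 83.4, 44.7, 82.3 and 128.2 CPM, and the double KO 172.5, 162.5, 137.9 and 166.1 CPM. The double KO libraries did not overlap those of either single KO and overlapped WT. Neither single KO was called against WT, at -0.75 (SE 0.34, adjusted p = 0.292) without miR-290 and -0.76 (SE 0.34, adjusted p = 0.322) without miR-302. The double KO was called higher than the miR-302 KO, by 1.04 (SE 0.37, adjusted p = 0.0354), in 16 of 22 alternatives, and not without the library that stands apart (0.82, adjusted p = 0.0636). Against the miR-290 KO the difference was 1.03 (SE 0.37, adjusted p = 0.0509) and was called in 12 of 22.

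**Figure D3:**
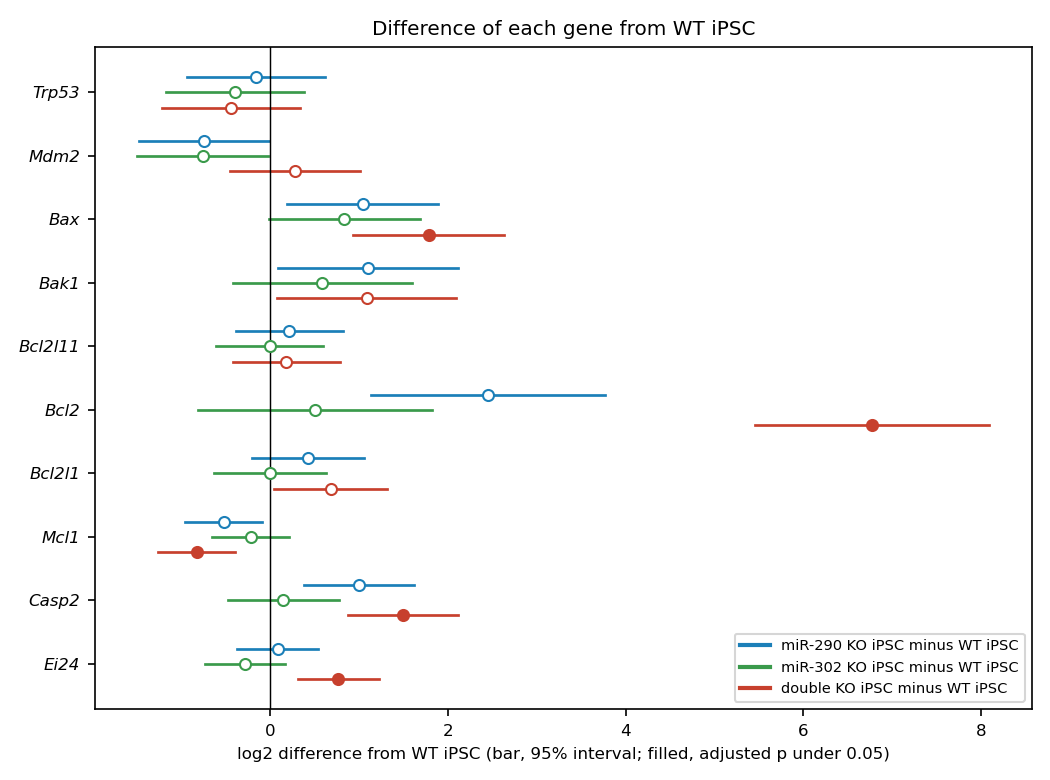
Log2 difference from WT iPSC of each gene in the miR-290 KO (blue), miR-302 KO (green) and double KO (red) iPSC, with 95% intervals; filled points have an adjusted p under 0.05. The 5 filled points are all of the double KO: Bax, Bcl2, Casp2 and Ei24 above 0 and Mcl1 below 0.

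Counted over all members, 5 of 10 were called between the double KO and WT, Bax, Bcl2, Casp2 and Ei24 higher and Mcl1 lower, while 49.0% of all genes were called in that comparison. The members' share is close to that background, and the count is no result about these genes as a set. The median log2 difference of the 10 was 0.72 and that of all genes 0.16. Against the miR-302 KO, the double KO was called for 5 of 10 members (Mdm2, Bcl2, Casp2 and Ei24 higher, Mcl1 lower), with 46.9% of all genes called. Against the miR-290 KO it was called for Bcl2 and Ei24, with 32.4% of all genes called.

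No member was called in the single KO iPSC. Against WT, 0 of 10 were called without miR-290, where 1.57% of all genes were called by limma and 2136 had an unadjusted p under 0.05. Of the members, Mdm2, Bax, Bak1, Bcl2, Mcl1 and Casp2 had an unadjusted p under 0.05 there. Without miR-302, 0 of 10 were called and 0.0313% of all genes, with 1928 under the unadjusted threshold, Mdm2 among them. Between the single KO iPSC 0 of 10 were called and 2.25% of all genes, with Bcl2 and Casp2 under the unadjusted threshold. Between the KO ESC groups 0 of 10 were called and 0.587% of all genes, with Ei24 under the unadjusted threshold. The iPSC and ESC of the same genotype differed in 0 of 10 members and 0% of all genes for each cluster, with 492 genes at an unadjusted p under 0.05 for miR-290 (Bax among them) and 1343 for miR-302 (Mdm2 among them).

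The deposited tables of the authors' own comparisons, which list only genes at an adjusted p of at most 0.05, hold more of the members. Their mean normalized counts match those over single libraries of the compared groups. The calls above rest on colony means in a fit of all groups, and on the scaling of the deposited log2 values. The calls are therefore not like for like. The authors' deposited table for the double KO against WT lists 8672 genes, so its count of members is no result about these genes as a set. It lists 7 members, adding Trp53 (log2 fold change -0.76, adjusted p = 0.00238) and Bak1 (0.85, adjusted p = 0.0100) to the 5 above. For all 7 the authors' value is below the log2 difference of the limma fit. It is 1.19 against 1.49 for Casp2, 0.45 against 0.76 for Ei24 and -0.76 against -0.45 for Trp53. How much of this comes from scaling and how much from the model was not tested. The authors' deposited table for the miR-290 KO against WT lists 1429 genes. The 5 members among them are Mdm2 (-0.90), Bak1 (1.29), Bcl2 (2.49), Mcl1 (-0.67) and Casp2 (0.86, adjusted p = 0.0386). How many genes the authors tested is not shown there, so the share over all genes is not known. This count is not read as a result about the members as a set either. The authors' deposited table for the miR-302 KO lists 43 genes and none of the 10.

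Whether the loss of both clusters adds up was tested as the double KO difference from WT less the sum of the single KO differences, which is 0 when the log2 differences add. Of the 10 members, 3 were called in this term, and 23.6% of all genes, so the count is near the background. The excess was 3.82 for Bcl2 (SE 0.90, adjusted p = 0.00992), 1.79 for Mdm2 (SE 0.50, adjusted p = 0.0233) and 0.96 for Ei24 (SE 0.31, adjusted p = 0.0411). For Bcl2 the difference of the double KO exceeded the sum of the other two. For Mdm2 the single KO differences were -0.75 and -0.76 and that of the double KO 0.28, none of them called. The Ei24 term was called in 9 of 22 alternatives and the Mdm2 term in 18, with the Mdm2 call lost without WT library 1, miR-290 KO colony 2, miR-302 KO colony 1 or double KO colony 1 (adjusted p up to 0.103). For Casp2 the term was 0.35 (SE 0.42, 95% interval -0.57 to 1.27, adjusted p = 0.580) and for Bax -0.09 (SE 0.58, 95% interval -1.35 to 1.17, adjusted p = 0.928).

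Around the 10 genes, 4 lists cover the rest of the pathway. Of 26 listed p53 target genes 23 are in the matrix, and in the double KO against WT 15 rose, 2 fell and 6 were not called. Of all 12778 genes 49.0% were called there, 3502 higher and 2753 lower. The median log2 difference of the targets was 1.27, against 0.16 for all genes. The count of 15 became 11 without double KO colony 2. Perp, a desmosome protein induced by p53, rose most, from 7.13 ± 3.66 CPM in WT (SD, n = 3) to 337 ± 33.0 CPM (SD, n = 2 colonies), a log2 difference of 5.70 (SE 0.47, adjusted p = 1.15e-06). Eda2r, a member of the TNF receptor family, rose by 3.16 (SE 0.44), from 9.23 to 82.1 CPM. Sesn1, a stress-induced regulator of growth signalling, fell by 1.41 (SE 0.34), from 25.7 to 9.57 CPM, and Tigar, which lowers glycolysis, fell by 1.39 (SE 0.21), from 174 to 65.9 CPM.

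No p53 target was called in the single KO iPSC against WT, 0 of 23 in each, where 1.57% of all genes were called without miR-290 and 0.0313% without miR-302. In the double KO against the miR-302 KO 17 were higher and 1 lower, where 46.9% of all 12778 genes were called, 3642 higher and 2345 lower. Against the miR-290 KO 12 were higher and 2 lower, where the share over all genes was 32.4%, 1991 higher and 2152 lower. Against WT, where 15 of the 23 rose and 2 fell, Trp53 mRNA was not called and the pluripotency markers fell. The level of p53 protein was not measured.

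Of 14 measured genes that act on p53 (16 listed), 4 were called higher and 4 lower in the double KO against WT, at a median log2 difference of -0.32. These 8 of 14 are near the 49.0% called over all genes, and the count is no result about the list. The 4 higher became 2 without WT library 2 or without double KO colony 2, and the 4 lower became 2 without double KO colony 1. Cdkn2a, which encodes the Mdm2 inhibitor Arf and the cell cycle inhibitor p16, rose from 28.8 ± 3.34 CPM (SD, n = 3) to 263 ± 43.9 CPM (SD, n = 2 colonies), by 3.22 (SE 0.52, adjusted p = 0.000282). Hipk2, a kinase that phosphorylates p53, rose from 1.81 to 14.5 CPM (adjusted p = 0.00167). The damage kinase Chek2 fell by 1.35 (SE 0.23), from 81.2 to 30.8 CPM, and the deacetylase Sirt1 fell by 1.26 (SE 0.24), from 64.3 to 26.5 CPM. The libraries do not tell the overlapping transcripts of Cdkn2a apart.

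Of 9 other BCL2 family genes 3 rose and 3 fell in the double KO against WT, where 49.0% of all genes were called. The BH3-only genes Bbc3 (Puma), itself a p53 target, and Bad rose by 1.72 (SE 0.26) and 1.44 (SE 0.26), from 26.0 to 84.1 CPM and from 35.5 to 94.1 CPM. Bmf, also BH3-only, was called lower, with 353 reads in WT and 8 in the double KO. Bik, likewise BH3-only, was called lower with 56 reads in WT and 2 in the double KO (adjusted p = 0.0141), too few for a fold. Of 23 measured genes for caspases, the apoptosome and their inhibitors (28 listed), 11 rose and 3 fell against the same 49.0%, at a median log2 difference of 0.53. Casp8, the initiator caspase of death receptors, rose from 0.930 to 17.3 CPM (log2 difference 4.10, SE 0.80, adjusted p = 0.00116). Its inhibitor Cflar rose from 2.19 to 20.1 CPM (3.24, SE 0.51, adjusted p = 0.000228). The mitochondrial nuclease Endog fell by 2.86 (SE 0.32), from 31.1 to 4.20 CPM, and Birc3, an inhibitor of apoptosis, fell by 1.70 (SE 0.60, adjusted p = 0.0331). Reads of Birc3 were not recovered, so its level in CPM is not known. The count of 11 became 7 without either double KO colony and the count of 3 varied from 2 to 5. None of these lists had a called gene in a single KO iPSC against WT, and at 1.57% and 0.0313% of all genes called that is near the background.

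**Figure D4:**
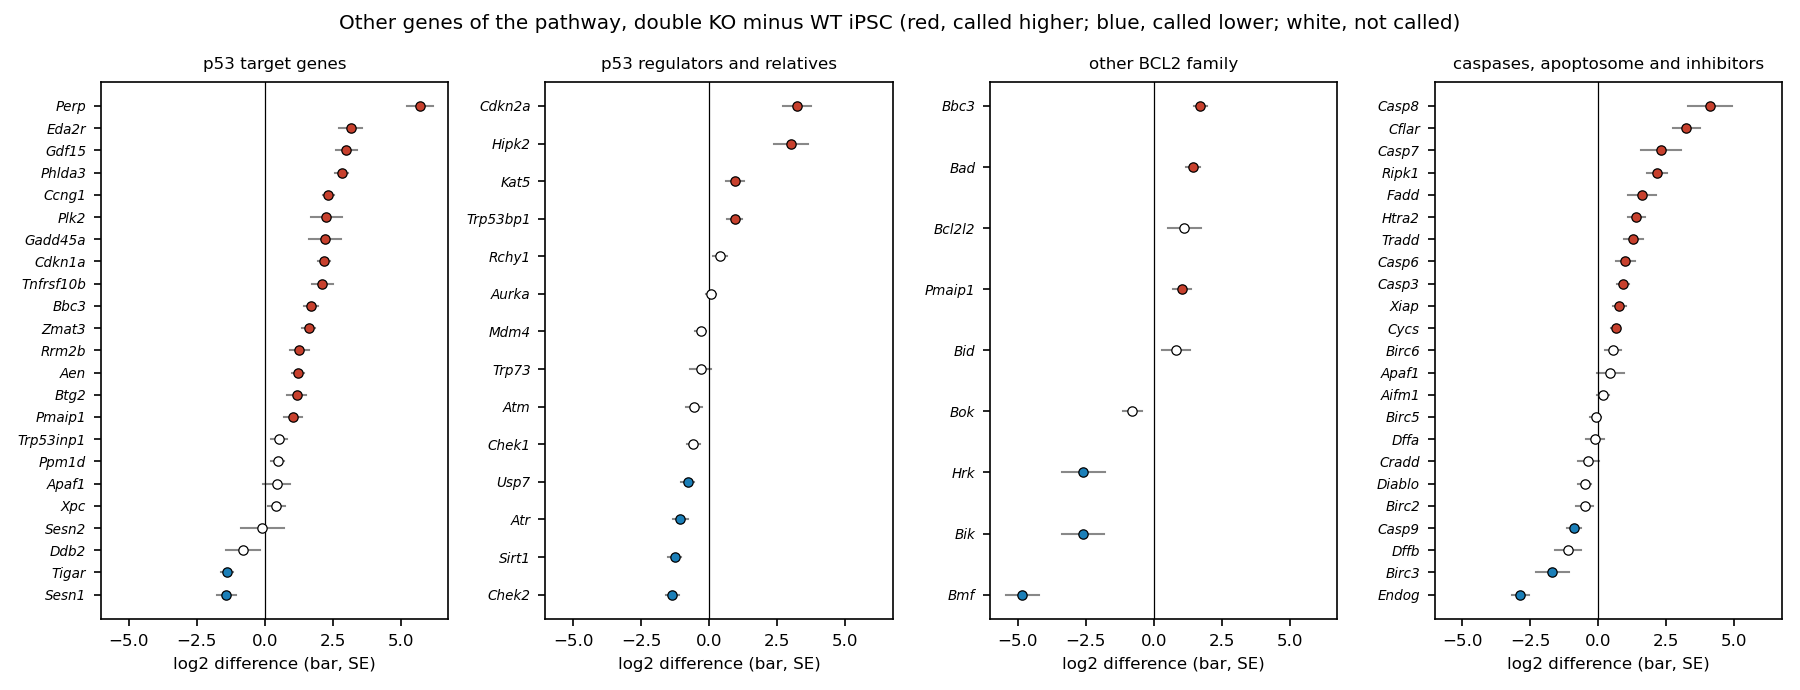
Log2 difference between double KO and WT iPSC (horizontal axis, bar SE) for every measured gene of the 4 pathway lists; red points are called higher, blue lower and white not called. Among p53 targets 15 of 23 are red, while regulators of p53 are split, 4 red and 4 blue of 14.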

How the data were processed

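RNA was sequenced from 19 libraries with the QuantSeq 3′ FWD kit from 200 ng of total RNA, as single-end 50 bp reads, per the labels' protocols. The submitters' processing notes name Trim Galore 0.66, STAR, Salmon 1.4.0, FastQC 0.11.9, MultiQC, limma, DESeq2 1.34.0 and mm10. Whether counting used strand is not given in the sources used here. Exons of Bak1, Bcl2 and Ei24 overlap annotated genes on the other strand. The deposited matrix holds log2 values per gene, which the authors made. From the values, these are log2 CPM with a small prior count, shifted by a constant per gene. Whole reads came back (within 0.02 reads, in at least 13 libraries) for 12235 genes (95.8%), and 543 genes have none. The recovered reads matched the mean normalized counts (signal) in the authors' deposited tables within 5% for all genes shared. Those deposited tables also give log2 fold changes, a score and p-values. In the matrix 6 columns matched no sample and were not used.

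Differences were tested with limma 3.58.1 (R 4.3.3, trend, two-sided, all 6 groups, 7 residual degrees of freedom) on the deposited log2 values, with Benjamini-Hochberg adjustment over 12778 genes. Count models were not used, since the deposited unit is log2. The test was checked on simulated data for the double KO against WT, in 5 runs with 200 changed genes each. It called 17.6% of changed genes at a log2 difference of 1 and 59.8% at 2, and 5.63% of its calls were false. A gene that was not called can thus still differ. Colony means were the samples. Named in each list are the 2 called genes with the largest rise and the 2 with the largest fall in the double KO. The members, lists and tests were chosen with earlier results of these data known. 3′UTRs come from GENCODE M21. In all, 8 kinds of alternative were planned, 1 of which leaves out each of the 13 samples in turn. Another 2 that take a colony from 1 library were added after seeing the data. Together these make the 22 alternatives.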

Additional observations from a re-analysis of the deposited data

Results flagged for a closer look

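Among 30 sets of 4 libraries (10 genes in each KO iPSC group), 3 have a library far from the others, where the gap to its neighbour divided by the range exceeds Dixon's 95% critical value for 4 samples. Chance gives about 1 in 20 for 4 independent draws. Each set here is 2 libraries from each of 2 colonies, so the 3 cannot be judged against that rate. Trp53 in library 2 of double KO colony 1 was 54.3 CPM, below the other 3 (gap over range 0.839). Bcl2l1 was 117 CPM (0.912) and Bcl2l11 was 23.9 CPM (0.899) in library 2 of miR-302 KO colony 1, each above the other 3. That is the library with the lowest correlation with its group, and it also holds the highest Bax, Bak1 and Bcl2 of its group. What sets it apart was not tested.

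For 3 genes the effect of losing 1 cluster differed with the presence of the other, by the term for non-additivity in limma. That term was 1.79 for Mdm2, 3.82 for Bcl2 and 0.96 for Ei24, on the log2 scale. In this term 23.6% of all genes were called, close to the 3 of 10 here, and the calls held in 18, 21 and 9 of 22 alternatives.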

How the results depend on the processing

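The 22 alternatives changed the summary of libraries, the scaling, sample weights, the filter, the prior, the samples fitted and the replicate number, or left out a sample. The calls of Bax, Bcl2 and Casp2 in the double KO against WT, of Bcl2, Casp2 and Ei24 against the miR-302 KO and of Bcl2 against the miR-290 KO held in all 22. No called difference changed sign. With estimated sample weights 1 member was called in the miR-290 KO against WT (Bcl2) and 3 in the double KO against the miR-302 KO, while Bak1 and Bcl2l1 joined the 5 called in the double KO against WT. With each library as a sample 1 was called between the single KO iPSC (Casp2, adjusted p = 0.0469), and with miR-302 KO colony 1 from library 1 alone also 1 (Bcl2, adjusted p = 0.0435). With miR-290 KO colony 2 from library 1 alone 1 was called in the double KO against the miR-290 KO. Leaving out each sample gave 3 to 6 members for the double KO against WT, 0 to 1 for the miR-290 KO against WT, 1 to 3 for the double KO against the miR-290 KO, 3 to 6 against the miR-302 KO, 0 to 3 for non-additivity and 0 to 1 between the KO ESC. Over the same fits the share of all genes called ran from 35.2% to 51.6%, 0.0157% to 2.35%, 21% to 35.5%, 34.9% to 48.6%, 14.4% to 29.9% and 0.0313% to 2.79%, in that order. Bcl2 lost its non-additive call without double KO colony 1 (adjusted p = 0.0540).

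With colony or library number as a replicate block, 5, 0, 0, 2, 4, 0, 2, 0, 0 and 0 members were called in the 10 comparisons in the order double KO, miR-290 KO and miR-302 KO against WT, double KO against each single KO, between single KO, non-additivity, between ESC, and iPSC against ESC for miR-290 and miR-302. The block ended the calls of Mcl1 against the miR-302 KO and of Ei24 for non-additivity. The numbers do not pair the samples: of 30 pairs with the same number 4 correlate above 0.1, with r from -0.27 to 0.18. The block lowered the count of all genes called from 201 to 55 for the miR-290 KO against WT, from 4 to 2 for the miR-302 KO, from 287 to 137 between them and from 75 to 28 between the ESC. Without miR-302 KO colony 2 the count was 1273 for the miR-302 KO against WT, 1279 between the single KO iPSC and 955 for iPSC against ESC. Without miR-290 KO colony 2 it was 2 for the miR-290 KO against WT. The background shares of the single KO comparisons thus rest on which colonies are in. Median-of-ratios scaling moved the median of all genes from 0.16 to 0.01 in the double KO against WT and from 0.24 to 0.03 against the miR-302 KO. With 2 colonies or 3 libraries a group, differences near 1 on the log2 scale were often not called. In the simulated data differences of 2 were also missed often. Bcl2 in WT rests on 23 reads.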
